A study of Mus musculus with 12 samples.

Results

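Bone morphogenetic protein (BMP) and ALK1 signalling genes were examined in the cells of mouse lymph nodes during a skin inflammation. The members were the 10 genes listed under the symbols Bmp4, Bmp6, Bmpr2, Acvrl1, Eng, Id1, Id2, Id3, Smad6 and Smad7, of 32285 genes in the count tables. Each symbol named 1 row and all 10 were measured in all 12 single-cell RNA libraries. The mice were C57BL/6 animals aged 7 to 10 weeks that carried ATG12 fl/fl, a floxed autophagy gene, and all had been given tamoxifen 5 times. Of each treatment, 1 library a fraction came from mice labelled positive for CDH5 CreER, a tamoxifen-inducible recombinase driven by an endothelial promoter and 1 from mice labelled negative for it. The abdomen received either 50 µl of 4% oxazolone, a contact sensitizer, or the acetone and olive oil vehicle. Lymph nodes were taken 3 or 7 days after oxazolone, and each suspension was split into a CD45-depleted fraction (the CD31 libraries) and a CD45-selected fraction (the CD45 libraries). Every combination of fraction, treatment and Cre label was 1 library, and the labels used here do not say how many animals a library holds.

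BMP ligands bind pairs of type I and type II serine/threonine kinase receptors, which phosphorylate SMAD1, SMAD5 and SMAD9. With SMAD4 these enter the nucleus and raise the Id genes, which encode inhibitors of basic helix-loop-helix factors, together with the inhibitory SMADs that feed back on the receptors. Endothelial cells carry a dedicated branch in which ALK1, the product of Acvrl1, works with endoglin (Eng) and BMPR2, and inherited loss of function of any of these causes vascular disease in humans. High endothelial venules (HEVs) are the post-capillary vessels through which lymphocytes enter a lymph node, and fibroblastic reticular cells form the mesh around them.

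The 6 CD31 libraries held 45437986 to 76186801 UMIs and 6316 to 11636 barcodes that passed the cell filters, and the 6 CD45 libraries held 36724887 to 70160214 UMIs and 5984 to 8719 such barcodes. Any pair of libraries shared 7 to 31 cell barcodes. Clusters were formed without the 10 members and 52 further pathway genes, and named from marker lists. The 9 HEV markers summed to 13818 to 80979 CPM (UMI counts scaled to 1000000 UMIs of the class in that library) in HEV-like cells and to 121 to 356 CPM in capillary-like cells, and the 6 pan-endothelial markers to 4084 to 5210 CPM in blood endothelial-like and 4.09 to 9.85 CPM in reticular fibroblast-like cells. Most fibroblasts lay in the CD45 libraries, although those are labelled as immune cells, so stromal levels below come from that fraction. Atg12 stood at 52.3, 46.2 and 51.4 CPM in blood endothelial-like cells of the Cre-negative vehicle, day 3 and day 7 libraries and at 74.1, 59.8 and 64.1 CPM in the Cre-positive ones, so its level was higher, and not lower, under the Cre-positive label at each time. The counts come from transcript 3′ ends, which may lie outside the deleted part, so this level does not check the labels. Among CD31 libraries, the Cre-positive ones and the day 7 Cre-negative one also listed a row for mRFP, a red fluorescent protein. The other libraries did not, and the row was left out. Free RNA, read from barcodes of 10 to 100 UMIs, held Id3 at 272 to 422 CPM and Bmp6 at 11.7 to 48.0 CPM in the CD31 libraries. The share of free RNA that marker genes allowed was at most 4.05% in HEV-like sums, but up to 13% in floor lymphatic-like sums and 42.0% in pericyte-like sums (18% in the next highest library). The vehicle Cre-negative and day 3 Cre-positive CD31 libraries stood apart: 15.4 and 27.7% of their cells lay in unnamed clusters, against 3.38 to 6.92% in the other 4. The barcodes removed from them as doublets had median UMIs of 3702 and 2157, below the 4329 and 3434 of the cells kept. Every call of a member that ended without either of these libraries is named below.

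**Figure D1:**
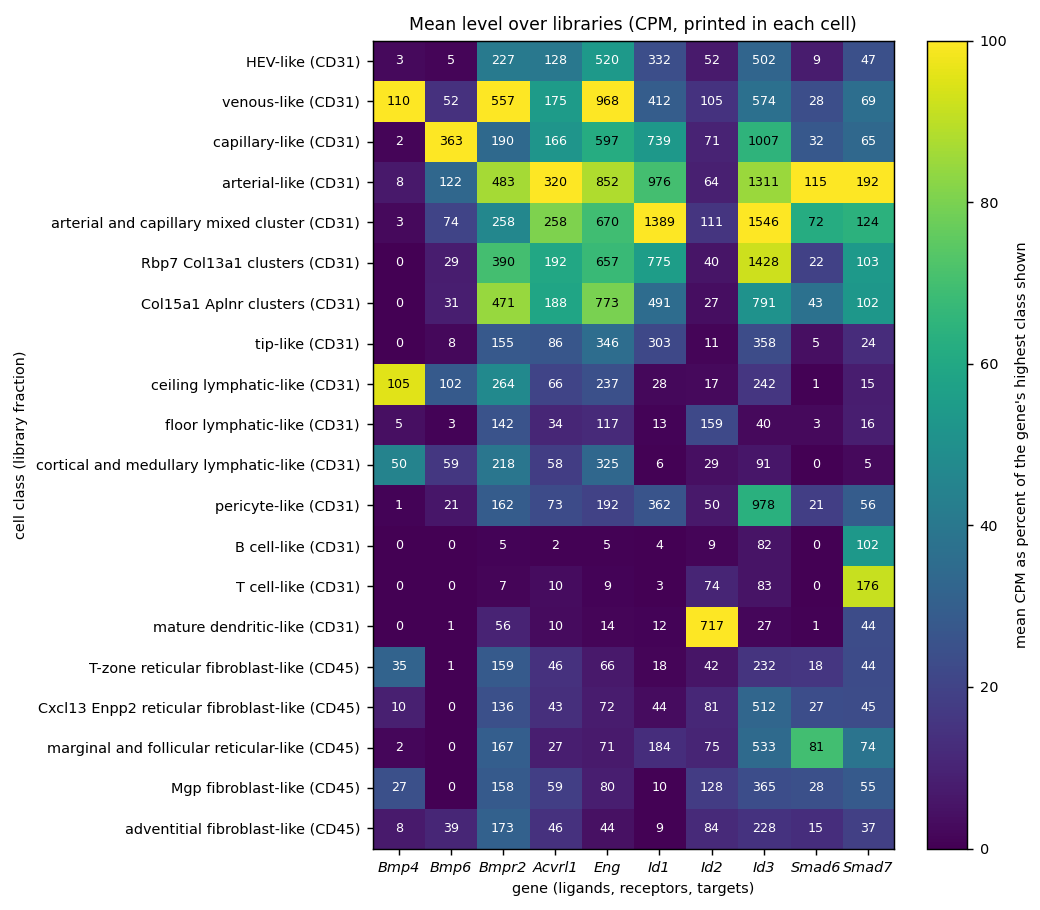
Mean CPM of the 10 genes (columns) in vessel, lymphatic, immune and stromal cell classes (rows, with the library fraction), printed in each cell; the colour is the mean as a percent of the gene's highest class shown. Bmp6 was highest in capillary-like cells at 363 CPM, Bmp4 in venous-like cells at 110 CPM, and Acvrl1 and Smad6 in arterial-like cells at 320 and 115 CPM, while Smad7 was at 192 CPM in arterial-like cells.

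Levels below are CPM of a class in a library, given as mean ± SD over the 6 libraries of a fraction, so the SD holds treatment and label differences as well as noise. Classes were compared with edgeR's quasi-likelihood test on UMI sums, with the library as a block and Benjamini-Hochberg adjustment over all genes tested; a call is an adjusted p under 0.05. Fitted log2 differences use TMM scaling, which allows for classes in which a few genes take many UMIs, so they can depart from ratios of CPM. In such sums, fewer cells expressing a gene and less RNA per cell cannot be told apart.

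The ligands Bmp6 and Bmp4 peaked in different blood vessel classes and were both read in ceiling lymphatic-like cells. Bmp6 (ENSMUSG00000039004, chr13:38345107-38500302, plus strand, GRCm38) encodes a ligand that is best known for telling the liver how much iron is stored and is made by endothelium there. In capillary-like cells it stood at 315, 385, 348, 370, 429 and 332 CPM in the vehicle Cre-negative, vehicle Cre-positive, day 3 Cre-negative, day 3 Cre-positive, day 7 Cre-negative and day 7 Cre-positive libraries, the order kept for all such series below. In HEV-like cells the same libraries gave 1.90, 10.9, 2.15, 7.32, 2.05 and 3.91 CPM, so the ranges were far apart. The fitted difference of HEV-like from capillary-like cells was -6.06 ± 0.25 log2 (SE; adjusted p = 4.49e-11). Arterial-like cells followed at 122 ± 26 CPM (SD, n = 6) and ceiling lymphatic-like cells at 102 ± 20.7 CPM. Next were the mixed arterial and capillary cluster at 74.2 ± 11.9 CPM, cortical and medullary lymphatic-like cells at 59.4 ± 23.5 CPM and venous-like cells at 52.4 ± 24.9 CPM. The blood endothelial-like clusters named for Col15a1 and Aplnr had 30.7 ± 10.0 CPM, and those named for Rbp7 and Col13a1 29.1 ± 16.7 CPM. These clusters held 355 to 1141 and 475 to 1134 cells a library, against 542 to 1687 capillary-like cells. The high level thus belonged to the capillary-like class and not to blood endothelial-like cells at large. The arterial and ceiling lymphatic ranges overlapped, while the capillary range lay above every other class.

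Within the lymphatics Bmp6 split by position. Ceiling lymphatic-like cells, which line the outer wall of the subcapsular sinus, had 68.6 to 126 CPM, and cortical and medullary lymphatic-like cells had 59.4 ± 23.5 CPM (SD, n = 6). Floor lymphatic-like cells, which face the node, had 1.15 to 6.30 CPM. Among fibroblasts Bmp6 was a gene of 1 class: adventitial fibroblast-like cells had 38.5, 33.1, 27.7, 72.0, 31.1 and 32.2 CPM. T-zone reticular fibroblast-like cells had at most 2.87 CPM. The fitted difference of adventitial from all reticular fibroblast-like cells was 6.56 ± 0.40 log2 (adjusted p = 1.07e-07). Exons of Bmp6 overlap those of Txndc5 on the other strand, and whether the counting used the strand is not given in the sources used here. Txndc5 had 20.6 ± 1.32 CPM (SD, n = 6) in capillary-like and 192 ± 35.4 CPM in adventitial fibroblast-like cells. Mgp fibroblast-like cells had Txndc5 at 155 ± 48.8 CPM beside Bmp6 at 0.316 ± 0.515 CPM. Whether reads of Txndc5 add to the Bmp6 counts was not tested.

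Bmp4 (ENSMUSG00000021835, chr14:46383520-46390669, minus strand) encodes a ligand that patterns many embryonic tissues. Its levels were 43.8, 116, 152, 133, 133 and 84.2 CPM in venous-like cells and 125, 109, 69.4, 85.3, 130 and 113 CPM in ceiling lymphatic-like cells, and these ranges overlapped. Capillary-like cells had 0 to 3.23 CPM and HEV-like cells 0.586 to 6.03 CPM. The venous-like class is small, with 16 to 64 cells and 5 to 43 Bmp4 UMIs a library. Against capillary-like cells the fitted difference was 6.00 ± 0.31 log2 (adjusted p = 3.41e-17). Cortical and medullary lymphatic-like cells had 49.5 ± 24.7 CPM (SD, n = 6) and floor lymphatic-like cells 4.74 ± 3.31 CPM. Both ligands were therefore higher on the ceiling side than on the floor side, in all 6 libraries for each.

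**Figure D2:**
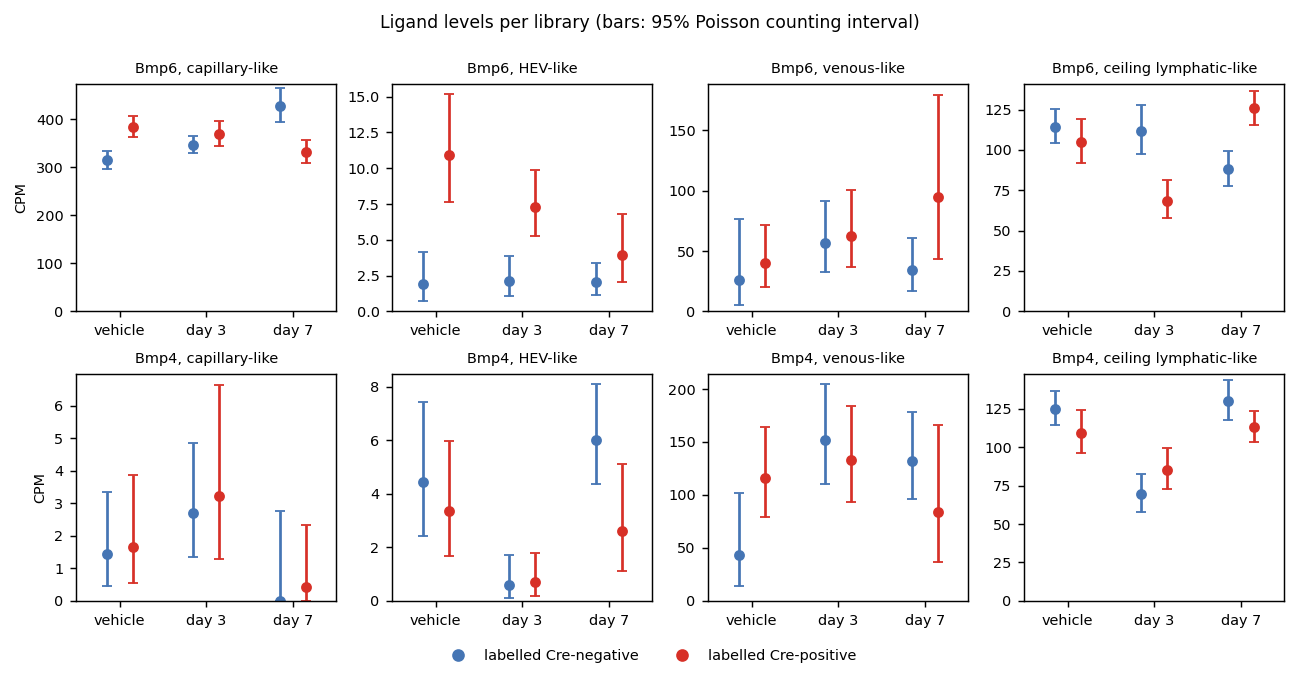
CPM of Bmp6 (top row) and Bmp4 (bottom row) per library in 4 CD31 classes, by treatment (x axis) and Cre label (colour); bars are 95% Poisson intervals and cover counting error only, and the y axes differ. Bmp6 in capillary-like cells lay between 315 and 429 CPM, against 1.90 to 10.9 CPM in HEV-like cells, while Bmp4 reached 152 CPM in venous-like cells.

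The receptor genes were read in all endothelial classes, with the highest means of Bmpr2 and Eng in venous-like and that of Acvrl1 in arterial-like cells. Bmpr2 (ENSMUSG00000067336, chr1:59763400-59879014, plus strand), the type II receptor, stood at 753, 557, 506, 454, 453 and 621 CPM in venous-like cells. It followed at 483 ± 59.9 CPM (SD, n = 6) in arterial-like cells and 471 ± 33.8 CPM in the Col15a1 and Aplnr clusters, with overlapping ranges. HEV-like cells had 217, 258, 220, 245, 186 and 236 CPM and capillary-like cells 166, 200, 211, 213, 196 and 151 CPM. Those 2 ranges overlapped, and the fitted difference was 0.58 ± 0.10 log2 (adjusted p = 9.78e-05).

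Acvrl1 (ENSMUSG00000000530, chr15:101128522-101145336, plus strand) encodes ALK1, the type I receptor of the endothelial branch. Arterial-like cells had 324, 327, 310, 306, 325 and 329 CPM. Only the mixed arterial and capillary cluster, at 228 to 315 CPM, reached into that range. Capillary-like cells had 166 ± 24.7 CPM (SD, n = 6), HEV-like cells 128 ± 11.6 CPM and lymphatic endothelial-like cells 54.0 ± 3.42 CPM. The fitted difference of arterial-like from capillary-like cells was 0.96 ± 0.10 log2 (adjusted p = 5.98e-07). HEV-like cells differed from capillary-like cells by -0.05 ± 0.10 log2 (adjusted p = 0.683), and no call was made. In the CD45 libraries type 1 dendritic-like cells had 58.9 ± 3.73 CPM (SD, n = 5) of Acvrl1 beside 2.79 ± 2.07 CPM of the co-receptor gene Eng.

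Eng (ENSMUSG00000026814, chr2:32646595-32682669, plus strand) encodes endoglin, the co-receptor that presents ligand to ALK1. Venous-like cells had 841 to 1084 CPM and arterial-like cells 659 to 1187 CPM, which overlap. HEV-like cells had 520 ± 30.4 CPM (SD, n = 6) and capillary-like cells 597 ± 21.6 CPM, with separate ranges of 475 to 553 and 568 to 624 CPM. After TMM scaling the sign turned, to 0.12 ± 0.08 log2 (adjusted p = 0.204), and no call was made. Lymphatic endothelial-like cells had 209 ± 15.7 CPM and fitted -1.75 ± 0.07 log2 from blood endothelial-like cells (adjusted p = 2.06e-09). In reticular fibroblast-like cells Eng stood at 58.5 to 74.2 CPM. Exons of Eng overlap those of Fpgs on the other strand, which had 8.39 ± 0.867 CPM (SD, n = 6) in blood endothelial-like cells.

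The target genes Id3, Id2 and Smad6 are shown with the 270 bases around their RefSeq starts (250 before and 20 after; GRCm38.p6), because Id3 and Smad6 changed with treatment below and Id2 had an order of classes unlike the other Id genes. Capitals mark 3 searched motifs on either strand: the palindromic SMAD element GTCTAGAC, the SMAD box GTCTG or its complement CAGAC, and the GC-rich element GGCGCC that SMAD1 and SMAD5 bind.
Id3: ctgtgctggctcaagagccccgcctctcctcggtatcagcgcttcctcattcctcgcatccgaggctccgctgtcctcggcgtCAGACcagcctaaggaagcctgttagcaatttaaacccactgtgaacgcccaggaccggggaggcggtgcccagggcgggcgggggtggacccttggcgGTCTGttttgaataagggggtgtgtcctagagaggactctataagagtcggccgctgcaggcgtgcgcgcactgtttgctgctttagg
Id2: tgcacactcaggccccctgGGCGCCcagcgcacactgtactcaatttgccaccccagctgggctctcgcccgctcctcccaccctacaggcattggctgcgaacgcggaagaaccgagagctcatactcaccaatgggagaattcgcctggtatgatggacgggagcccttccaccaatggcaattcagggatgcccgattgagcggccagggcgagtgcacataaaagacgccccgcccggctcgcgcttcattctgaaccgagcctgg
Smad6: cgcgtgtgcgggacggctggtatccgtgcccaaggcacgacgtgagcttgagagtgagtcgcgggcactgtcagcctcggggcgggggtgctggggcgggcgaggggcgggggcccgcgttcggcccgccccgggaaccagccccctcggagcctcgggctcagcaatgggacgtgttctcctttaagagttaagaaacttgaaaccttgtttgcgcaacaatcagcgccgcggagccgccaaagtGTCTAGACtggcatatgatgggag
These windows are chr4:136143572-136143841 (plus strand), chr12:25096073-25096342 (minus strand) and chr9:64022040-64022309 (minus strand). The Smad6 window held GTCTAGAC with its first base at 4 bases before the start, so that the motif spans the start. It was found in 0.183% of 32851 promoter windows of that length. The Id3 window held SMAD boxes at 167 and 68 bases before the start, which 45.4% of windows also hold. The Id2 window held GGCGCC at 231 bases before the start, as did Bmpr2 at 105 bases, against 10.4% of windows. Bmp6 and Eng held SMAD boxes alone, and Bmp4 held none of the 3 motifs. The table gave windows for 7 of the 10 genes, and Acvrl1, Id1 and Smad7 had none. A match of letters is a description and not a bound site.

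Id1 (ENSMUSG00000042745, chr2:152736251-152737410, plus strand) and Id3 (ENSMUSG00000007872, chr4:136143497-136145755, plus strand) are immediate BMP targets. The highest mean of Id1 was in the mixed arterial and capillary cluster, at 1389 ± 201 CPM (SD, n = 6), in a range that overlapped that of arterial-like cells. Id1 stood at 765, 942, 1075, 1219, 1196 and 661 CPM in arterial-like cells and at 656, 1013, 792, 669, 595 and 711 CPM in capillary-like cells. The ranges overlapped, and the fitted difference of 0.40 ± 0.14 log2 (adjusted p = 0.0308) lost its call without the day 3 Cre-positive or the day 7 Cre-negative library (0.28 and 0.27 log2). HEV-like cells had 332 ± 126 CPM (SD, n = 6) and fitted -0.89 ± 0.18 log2 from capillary-like cells (adjusted p = 0.00061). In lymphatic endothelial-like cells Id1 was at 10.4 to 35.9 CPM, and the fitted difference from blood endothelial-like cells was -5.20 ± 0.20 log2 (adjusted p = 1.10e-09). The lymphatic level lay below that in free RNA of the same libraries, 111 to 260 CPM. Among fibroblast classes the highest level was in marginal and follicular reticular-like cells, at 184 ± 45.7 CPM (SD, n = 5), above every other such class.

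Id3 had its highest means in the mixed arterial and capillary cluster (1546 ± 331 CPM) and the Rbp7 and Col13a1 clusters (1428 ± 240 CPM). It stood at 1311 ± 193 CPM (SD, n = 6) in arterial-like, 1007 ± 238 CPM in capillary-like, 502 ± 191 CPM in HEV-like and 148 ± 36.7 CPM in lymphatic endothelial-like cells. Pericyte-like cells, the contractile cells wrapped around small vessels, had 978 ± 217 CPM. Their fitted difference from blood endothelial-like cells was -0.0008 ± 0.12 log2 (adjusted p = 0.998). Reticular fibroblast-like cells held Id3 at 355 to 459 CPM and Id1 at 42.7 to 59.6 CPM. Free RNA of the CD45 libraries held Id3 at 137 to 202 CPM, below the level of this pooled reticular class. The vehicle and day 7 levels of Id3 in T-zone reticular fibroblast-like cells, given below, lay inside that free RNA range.

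Id2 (ENSMUSG00000020644, chr12:25093799-25097140, minus strand) is required for several innate lymphoid and dendritic lineages. Its highest class means were in mature dendritic-like cells, at 736 ± 124 CPM (SD, n = 6) in the CD45 and 717 ± 123 CPM in the CD31 libraries. Type 1 dendritic-like cells had 674 ± 77.8 CPM (SD, n = 5) and natural killer cell-like cells 669 ± 128 CPM (SD, n = 6) in the CD45 libraries, with overlapping ranges. Among endothelial classes floor lymphatic-like cells had the highest mean, with 111, 158, 222, 244, 90.6 and 129 CPM, a range that overlapped those of the mixed arterial and capillary cluster (83.1 to 156 CPM) and venous-like cells (74.3 to 144 CPM). Ceiling lymphatic-like cells had 11.5 to 22.9 CPM, below the floor in all 6 libraries. HEV-like cells had 52.1 ± 10.8 CPM (SD, n = 6), and their difference from capillary-like cells was -0.14 ± 0.11 log2 (adjusted p = 0.263).

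Smad6 (ENSMUSG00000036867, chr9:63953076-64022059, minus strand) and Smad7 (ENSMUSG00000025880) encode the inhibitory SMADs; SMAD6 acts mainly on BMP receptors and SMAD7 on TGF-beta receptors as well. Smad6 stood at 101, 83.2, 189, 150, 106 and 63.1 CPM in arterial-like, at 25.4 to 37.8 CPM in capillary-like and at 6.30 to 10.4 CPM in HEV-like cells, 3 ranges with no overlap. The HEV-like range overlaps that of free RNA, 7.46 to 11.9 CPM. The fitted differences from capillary-like cells were 1.82 ± 0.21 log2 for arterial-like (adjusted p = 2.57e-06) and -1.53 ± 0.15 log2 for HEV-like cells (adjusted p = 4.71e-07). Lymphatic endothelial-like cells had 0.495 to 2.21 CPM. Smad7 was at 192 ± 33.6 CPM (SD, n = 6) in arterial-like cells and at a like level in T cell-like cells, 197 ± 28.6 CPM in the CD45 and 176 ± 23.5 CPM in the CD31 libraries. It was at 13.9 ± 3.05 CPM in lymphatic endothelial-like cells.

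Class differences were common among all genes, so the counts of members are read against that share. Between HEV-like and capillary-like cells 5 of 9 members tested were called, 4 of them lower in HEV-like cells, where 66.6% of 10998 genes tested were called. Between venous-like and capillary-like cells 7 of 10 were called against 32.4% of genes: Bmp4, Bmpr2, Eng (0.76 ± 0.14 log2) and Id2 were higher and Bmp6, Id1 and Id3 lower. The Id2 call, at 0.61 ± 0.18 log2, was lost with no expression filter (0.47 log2) and without the day 3 Cre-positive or the day 7 Cre-negative library (both 0.51 log2). Between arterial-like and capillary-like cells 8 of 9 were called against 42.7% of genes, and 7 of the 8 were higher in arterial-like cells, Bmp6 being the exception at -1.58 ± 0.11 log2.

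Between lymphatic and blood endothelial-like cells all 10 members were called, against 61.2% of 14115 genes. The 3 receptor genes, Bmp6, Id1, Id3, Smad6 and Smad7 were lower in lymphatic cells, with fitted differences from -0.41 ± 0.12 log2 for Bmp6 to -5.20 ± 0.20 log2 for Id1. Bmp4 was higher by 4.18 ± 0.27 log2 (adjusted p = 9.90e-08) and Id2 by 0.31 ± 0.10 log2 (adjusted p = 0.024). The lymphatic class pools ceiling, floor, and cortical and medullary cells, which differed. Bmpr2 in ceiling lymphatic-like cells was at 264 ± 25.2 CPM (SD, n = 6). That was above capillary-like cells at 190 ± 25.5 CPM and below arterial-like cells at 483 ± 59.9 CPM. Bmp4 was at 105 ± 23.5 CPM in ceiling and 4.74 ± 3.31 CPM in floor cells, while Id2 was higher in floor cells, as given above. These lymphatic classes were not tested apart. The Bmp6 call was lost in cells of at least 2000 UMIs (-0.16 log2), and the Id2 call without the vehicle Cre-positive, the day 3 Cre-negative or the day 3 Cre-positive library (0.27, 0.27 and 0.22 log2). Between pericyte-like and blood endothelial-like cells 6 of 10 were called against 32.4% of genes, all lower in pericytes; Eng had -1.87 ± 0.16 and Id1 -0.87 ± 0.15 log2. Transcripts of the fibroblast list summed to 311 to 1624 CPM in the pericyte-like class, and their part in these differences was not tested. Between adventitial and reticular fibroblast-like cells 7 of 10 were called against 47.6% of genes. Bmp6 and Bmpr2 (0.26 ± 0.09 log2) were higher in adventitial cells and Bmp4, Eng, Id1, Id3 and Smad6 lower, Id1 by -2.59 ± 0.32 log2. The Bmpr2 call was lost under 5 of 6 processing alternatives, DESeq2 among them (0.23 log2), and without each of 5 libraries in turn (0.20 to 0.27 log2).

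On day 3 after oxazolone Id1 and Id3 were higher in HEV-like cells. Treatment and label were fitted together over the 6 libraries of a fraction with 2 residual degrees of freedom, so a treatment effect is an average over both labels and rests on 2 libraries a time point. Id1 stood at 195 and 217 CPM in the vehicle libraries, at 446 and 514 CPM on day 3 and at 294 and 329 CPM on day 7, each pair Cre-negative first. No value of 1 time point fell inside the range of another. Day 3 over vehicle was 2.29-fold (95% counting interval 2.10 to 2.51) among Cre-negative and 2.37-fold (2.18 to 2.57) among Cre-positive libraries. The fitted change was 1.20 ± 0.15 log2 (SE; adjusted p = 0.0321). Id3 went from 327 and 315 CPM to 708 and 750 CPM and stood at 386 and 524 CPM on day 7. Its fitted change was 1.16 ± 0.16 log2 (adjusted p = 0.0328).

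These were 2 of 10 members tested in HEV-like cells, against 0.354% of 11597 genes called. Both calls were lost when either day 3 library was left out, with values of 1.25 and 1.15 log2 for Id1 and 1.13 and 1.18 log2 for Id3. The share of HEV-like cells with an Id1 UMI, after each cell was thinned to 1000 UMIs (the filter minimum, so no cell was left out), was 16.2 and 19.5% in vehicle, 32.2 and 35.9% on day 3 and 24.7 and 26.6% on day 7; unthinned it was 47.7 and 55.5%, 78.2 and 75.5%, and 66.8 and 71.0%. In B cell-like cells, which should lack Id1, the thinned share was 0 to 0.523%. Id2 had 38.4 and 45.3, 67.0 and 62.0, and 53.1 and 46.9 CPM, a fitted change of 0.60 ± 0.17 log2 that was not called (adjusted p = 0.115). Bmp4 was read at 4.44 and 3.35 CPM in vehicle and 0.586 and 0.697 CPM on day 3, from 3 and 4 UMIs, and was not called (adjusted p = 0.087). No receptor gene was called: Bmpr2, Acvrl1 and Eng had fitted changes of -0.05 ± 0.14, 0.02 ± 0.15 and 0.08 ± 0.14 log2.

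Other levels moved with the same libraries. The immediate-early genes, which respond to tissue digestion as well as to signals, summed to 10124 and 9031 CPM in HEV-like cells of the vehicle libraries, 4274 and 4158 CPM on day 3 and 9823 and 6361 CPM on day 7. The cycling markers summed to 38 and 24.6 CPM, 67.0 and 93.9 CPM, and 18.8 and 39.8 CPM. Klf2 and Klf4, which shear flow raises, summed to 655 and 517, 403 and 525, and 706 and 789 CPM. The capillary markers in the HEV-like class summed to 1572 to 2047 CPM over all 6 libraries and arterial markers to 142 to 311 CPM. The sum of the HEV markers differed widely between libraries, as given above, and is not split by treatment here. Whether the make-up of the class changed with treatment is therefore not shown by these sums. The part of any of these in the Id1 and Id3 changes was not tested.

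**Figure D3:**
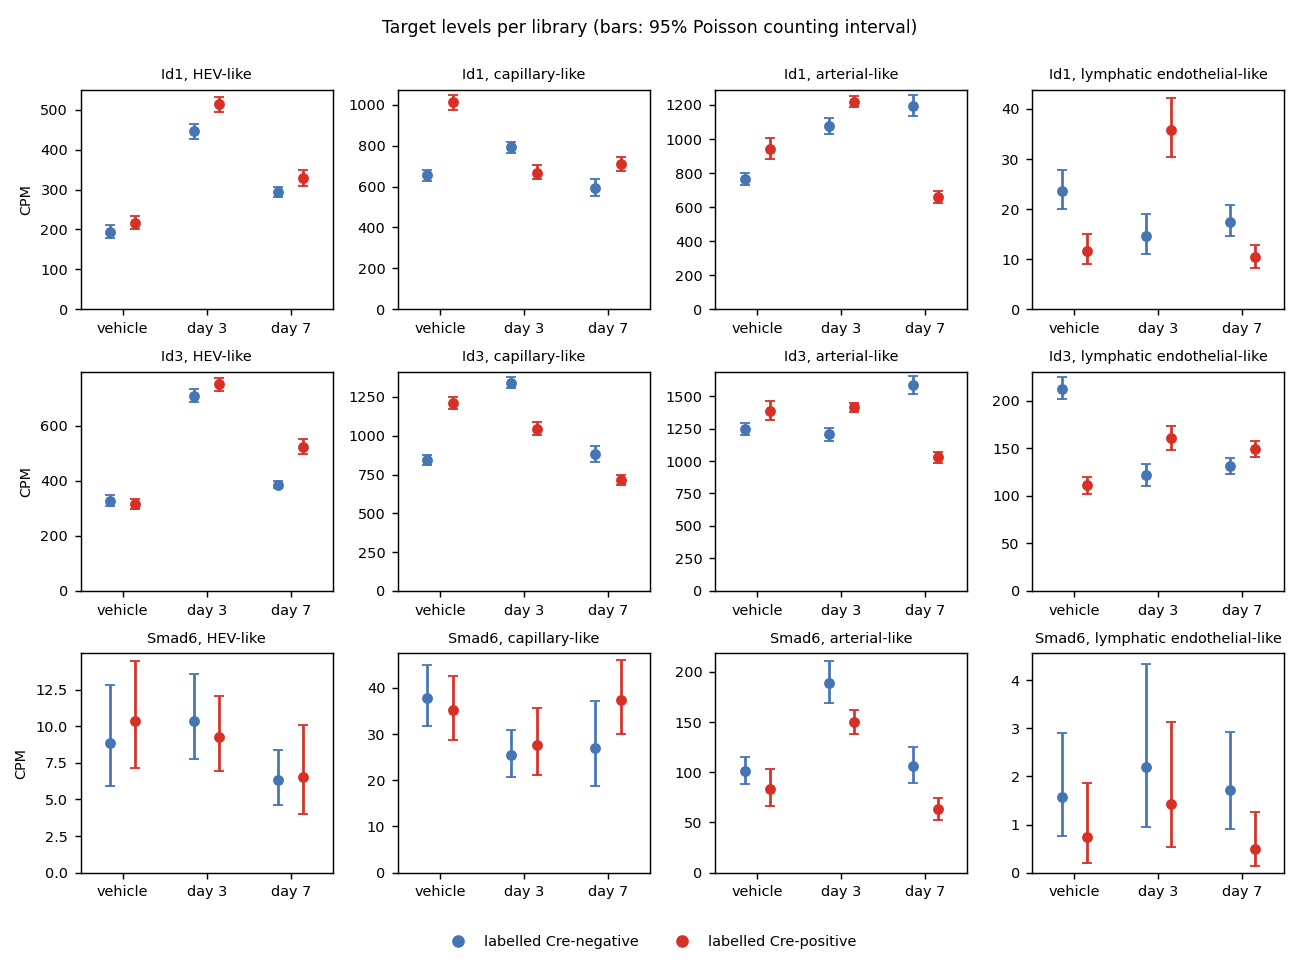
CPM of Id1, Id3 and Smad6 (rows) per library in 4 CD31 classes (columns), by treatment (x axis) and Cre label (colour); bars are 95% Poisson intervals and cover counting error only, and the y axes differ. In HEV-like cells both day 3 values of Id1 (446 and 514 CPM) lie above all other libraries, and in arterial-like cells both day 3 values of Smad6 (189 and 150 CPM) do.

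Arterial-like cells showed another pair on day 3. Smad6 rose from 101 and 83.2 CPM to 189 and 150 CPM and stood at 106 and 63.1 CPM on day 7, so that both day 3 values lay above the other 4. The fitted change was 0.95 ± 0.17 log2 (adjusted p = 0.0011). Eng rose from 743 and 659 CPM to 1187 and 1035 CPM and stood at 739 and 748 CPM on day 7, a change of 0.72 ± 0.17 log2 (adjusted p = 0.0107). These were 2 of 10 members, against 6.73% of 10508 genes called. Leaving out either day 3 library ended both calls, with values of 1.08 and 0.84 log2 for Smad6 and 0.70 and 0.76 log2 for Eng. The flow genes Klf2 and Klf4 summed to 1488 and 2009 CPM, 1038 and 1264 CPM, and 1707 and 1570 CPM in the same cells, and immediate-early genes to 3114 and 5699, 1586 and 2318, and 4333 and 2655 CPM. Their part was not tested.

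Whether the day 3 changes differed between vessels was tested in a model of both classes with the library as a block, the class, and the class by treatment and class by label terms, with 2 residual degrees of freedom. For Id1 the change in HEV-like cells exceeded that in capillary-like cells by 1.33 ± 0.22 log2 (adjusted p = 0.000259). For Id3 the difference was 0.90 ± 0.23 log2 (adjusted p = 0.0236). These were 2 of 9 members, against 1.71% of 10998 genes. Capillary-like cells had Id1 at 656 and 1013 CPM in vehicle and 792 and 669 CPM on day 3, so the 2 labels went opposite ways there. Cells of at least 2000 UMIs were 850 of 1115 and 772 of 1007 capillary-like cells in vehicle. On day 3 they were 924 of 1687 and 443 of 1035. In HEV-like cells they were 295 of 346 and 334 of 344 in vehicle and 437 of 450 and 573 of 694 on day 3. Beyond the refit in cells of at least 2000 UMIs, the part of this depth in the differences was not tested. The Id3 difference was not called with DESeq2 (0.89 log2), in cells of at least 2000 UMIs (0.86 log2) or with free RNA subtracted (0.91 log2). Neither gene was called without either day 3 library (0.92 and 1.74 log2 for Id1, 0.68 and 1.13 log2 for Id3), and Id3 not without the vehicle Cre-positive library (0.37 log2). For Smad6 the change in arterial-like cells exceeded that in capillary-like cells by 1.39 ± 0.26 log2 (adjusted p = 0.000392), 1 of 9 members against 2.73% of 10441 genes. It was not called with DESeq2 (1.38 log2) or without the vehicle Cre-negative library (1.05 log2).

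In capillary-like cells 0 of 9 members were called on day 3, against 0.155% of 10959 genes; 911 genes had an unadjusted p under 0.05 and DESeq2 called 16 genes. The largest fitted change there was that of Smad7, from 41.6 and 78.2 CPM to 97.6 and 69.7 CPM (0.57 ± 0.24 log2, adjusted p = 0.539). In lymphatic endothelial-like cells 0 of 10 members were called and 0% of 13250 genes; 658 genes had an unadjusted p under 0.05, and DESeq2 called 13 genes and 0 members. Bmp4 fitted -0.63 ± 0.27 log2 there (adjusted p = 0.958), with 86.0, 53.4, 41.9, 45.9, 61.6 and 75.7 CPM. Ceiling cells were 580 of 872, 318 of 727, 280 of 492, 256 of 505, 505 of 1145 and 619 of 1002 cells of that pooled class, and within them the day 3 Bmp4 levels of 69.4 and 85.3 CPM lay below the other 4. Id2 fitted 0.59 ± 0.24 log2 (adjusted p = 0.953), and in floor lymphatic-like cells the day 3 levels of 222 and 244 CPM lay above the other 4. Ceiling and floor cells were not fitted on their own. How many genes had both day 3 values at 1 end of the range was not computed. These patterns are therefore descriptions and not signs of a treatment effect.

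In T-zone reticular fibroblast-like cells, the stroma that guides T cells through the node, Bmp4 fell while Id1 and Id3 rose on day 3. Bmp4 stood at 47.8 and 57.0 CPM in vehicle, 4.80 and 11.4 CPM on day 3 and 52.3 and 36.1 CPM on day 7. The fitted change was -2.64 ± 0.35 log2 (adjusted p = 0.00352). Id1 stood at 9.15 and 3.35, 49.4 and 33.3, and 8.30 and 7.37 CPM, a change of 2.99 ± 0.33 log2 (adjusted p = 0.00161) that rests on 9 and 7 vehicle UMIs. Id3 stood at 167 and 177, 377 and 336, and 158 and 176 CPM, a change of 1.19 ± 0.22 log2 (adjusted p = 0.0089). For all 3 genes both day 3 values lay outside the range of the other 4. These were 3 of 9 members, against 20% of 12360 genes called. All 3 calls were lost without the day 3 Cre-negative library, at -2.08, 2.95 and 0.97 log2.

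The class holds clusters whose mix changed with time. On day 3 cluster 14 held 729 of 794 and 341 of 431 T-zone cells, while in the vehicle and day 7 libraries cluster 16 held most. Within cluster 14 Bmp4 was at 31.4 and 42.4 CPM in vehicle and 3.75 and 7.87 CPM on day 3, and within cluster 16 at 53.5 and 65.6 CPM and at 29.7 and 27.8 CPM. Bmp4 was thus lower on day 3 in both clusters under both labels, although in cluster 16 the Cre-negative counting intervals overlapped. Id1 within cluster 16 was at 2.74 and 3.05 CPM in vehicle and 13.7 and 11.3 CPM on day 3, from 2 to 13 UMIs, with overlapping counting intervals under both labels. On day 7 it was at 9.76 and 5.49 CPM there. Id1 within cluster 14 was at 27.5 and 3.86 CPM in vehicle, from 7 and 3 UMIs, and 50.9 and 38 CPM on day 3. The Cre-negative intervals overlapped in cluster 14 and the Cre-positive ones did not. Its day 7 levels in cluster 14 were 5.54 and 26.3 CPM. Id3 within cluster 14 was at 184 and 184 CPM and at 386 and 361 CPM, with separate counting intervals under both labels. Id3 within cluster 16 was at 161 and 173 CPM and at 165 and 219 CPM, so its day 3 value in the Cre-negative library lay inside the vehicle range. The cycling markers summed to 119 and 8.62 CPM in vehicle, 374 and 348 CPM on day 3 and 17.9 and 23.3 CPM on day 7 in the class, and immediate-early genes to 3783 and 7419, 1403 and 3277, and 6196 and 4945 CPM. The part of cluster mix and cycling in these changes was not tested.

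Over all reticular fibroblast-like cells 1 of 9 members was called on day 3, against 2.45% of 14381 genes. It was Bmp4, at 20.7 and 21.8 CPM in vehicle, 4.92 and 7.48 CPM on day 3 and 23.6 and 20.4 CPM on day 7 (-1.72 ± 0.24 log2, adjusted p = 0.0278). The call was lost without either day 3 library (-1.45 and -2.01 log2). The make-up of this pooled class changed too: T-zone cells were 168 of 543 and 251 of 943 of it in vehicle and 794 of 1153 and 431 of 911 on day 3. In the Cxcl13 and Enpp2 reticular fibroblast-like cells Bmp4 was at 11.9 and 10.5 CPM in vehicle and 6.61 and 4.30 CPM on day 3. Id1 in those cells showed no such rise, with 44.7 and 58.5 CPM in vehicle and 46.0 and 31.3 CPM on day 3.

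**Figure D4:**
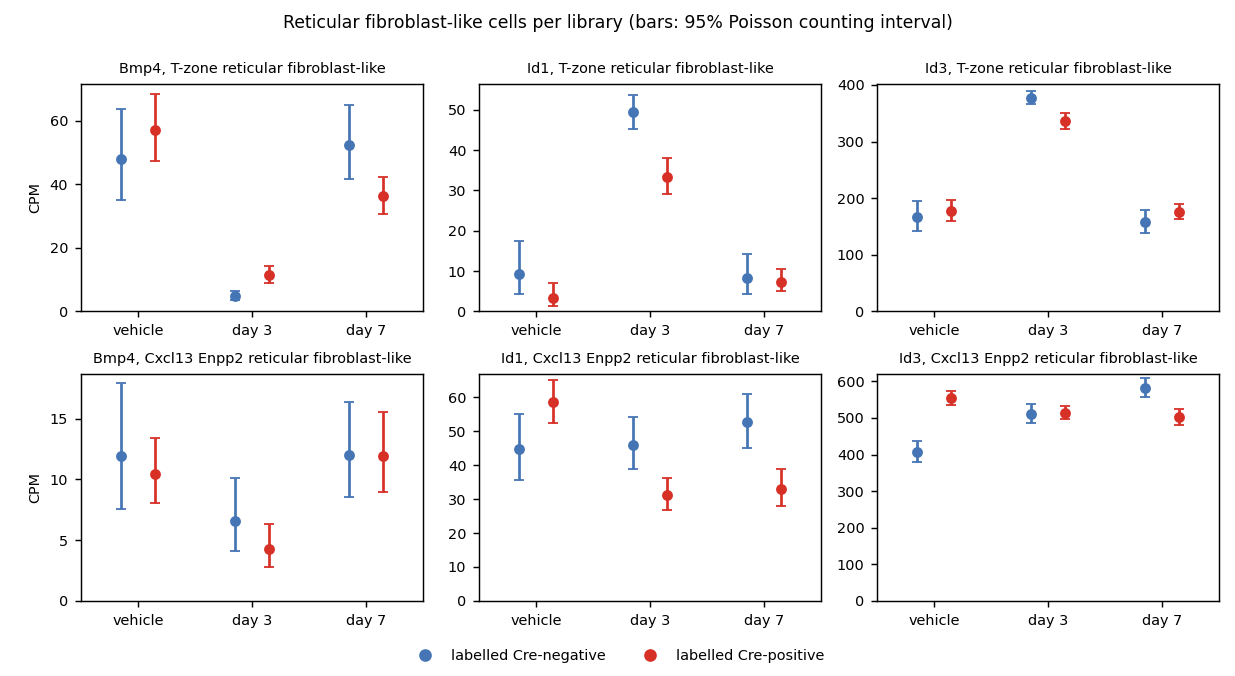
CPM of Bmp4, Id1 and Id3 per library in 2 reticular fibroblast classes of the CD45 libraries, by treatment (x axis) and Cre label (colour); bars are 95% Poisson intervals and cover counting error only, and the y axes differ. In T-zone reticular fibroblast-like cells Bmp4 fell to 4.80 and 11.4 CPM on day 3 while Id1 stood at 49.4 and 33.3 CPM, and the day 7 values of Id1 were 8.30 and 7.37 CPM.

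By day 7 no member was called in any of the 6 classes tested. Of the genes tested, 0% were called in HEV-like, 0.0365% in capillary-like, 0% in lymphatic endothelial-like, 0% in reticular fibroblast-like, 0.0381% in arterial-like and 0% in T-zone reticular fibroblast-like cells. At an unadjusted p under 0.05 there were 324, 332, 110, 224, 352 and 353 genes in that order, and DESeq2 called 0, 3, 2, 0, 0 and 0. Id1 in HEV-like cells stood at 1.51-fold (1.38 to 1.65) and 1.52-fold (1.38 to 1.67) its vehicle level among Cre-negative and Cre-positive libraries, counting intervals that exclude 1. Its fitted change was 0.63 ± 0.14 log2 (adjusted p = 0.991).

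The Cre label, which marks the intended loss of Atg12 in endothelium, gave 0 members called in any class. Of the genes tested, 0.0179% were called in HEV-like, 0.141% in capillary-like, 0.00779% in lymphatic endothelial-like, 0% in reticular fibroblast-like, 0.0686% in arterial-like and 0% in T-zone reticular fibroblast-like cells. At an unadjusted p under 0.05 there were 571, 458, 329, 990, 299 and 802 genes, and DESeq2 called 1, 3, 1, 6, 0 and 3. Of 65 pairs of a member and a class, 12 differed in 1 direction at all 3 times, 8 higher and 4 lower in the Cre-positive library. T-zone cells enter these pairs both alone and within the reticular class. Some pairs would keep 1 direction without any label effect, and the share over all genes was not computed. The count is therefore a description and not a sign of a label effect. The Bmpr2, Bmp6 and Smad6 pairs named below were picked from the 12 after their values were seen. In HEV-like cells Bmpr2 was higher in the Cre-positive library at vehicle, day 3 and day 7, by 1.19-fold (1.07 to 1.32), 1.11-fold (1.02 to 1.20) and 1.27-fold (1.16 to 1.39). The fitted label difference was 0.20 ± 0.11 log2 (adjusted p = 1.00). Bmp6 was higher by 5.76-fold, 3.41-fold and 1.90-fold from 6 to 42 UMIs a library, with the day 7 interval of 0.813 to 4.36 including 1. Its fitted difference was 1.67 ± 0.38 log2 (adjusted p = 0.402), and the level in either label was below that of free RNA in the CD31 libraries.

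In arterial-like cells Smad6 was lower in the Cre-positive library at each time, by 0.826-fold, 0.793-fold and 0.596-fold, and its fitted difference was -0.38 ± 0.14 log2 (adjusted p = 0.999). In lymphatic endothelial-like cells Id1 was lower in the Cre-positive library at vehicle (11.7 against 23.6 CPM) and day 7 (10.4 against 17.5 CPM) and higher on day 3 (35.9 against 14.6 CPM). This pair did not keep 1 direction. Free RNA shares allowed by markers, Cre-positive first, were 1.36 and 7.33% in vehicle, 4.01 and 3.45% on day 3 and 5.35 and 2.52% on day 7. Free RNA held more Id1 than these cells, and its part in these differences was not tested. With 1 library a combination no test of the label within a time was possible. On simulated counts the label fit in HEV-like cells recovered 98% of 2-fold changes and the day 3 fit 78%. The spread between those simulated libraries was fixed in advance. Only genes above the levels of Bmp4, Bmp6 and Smad6 in HEV-like cells were changed. These shares therefore do not show which changes the real fits could have missed.

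**Figure D5:**
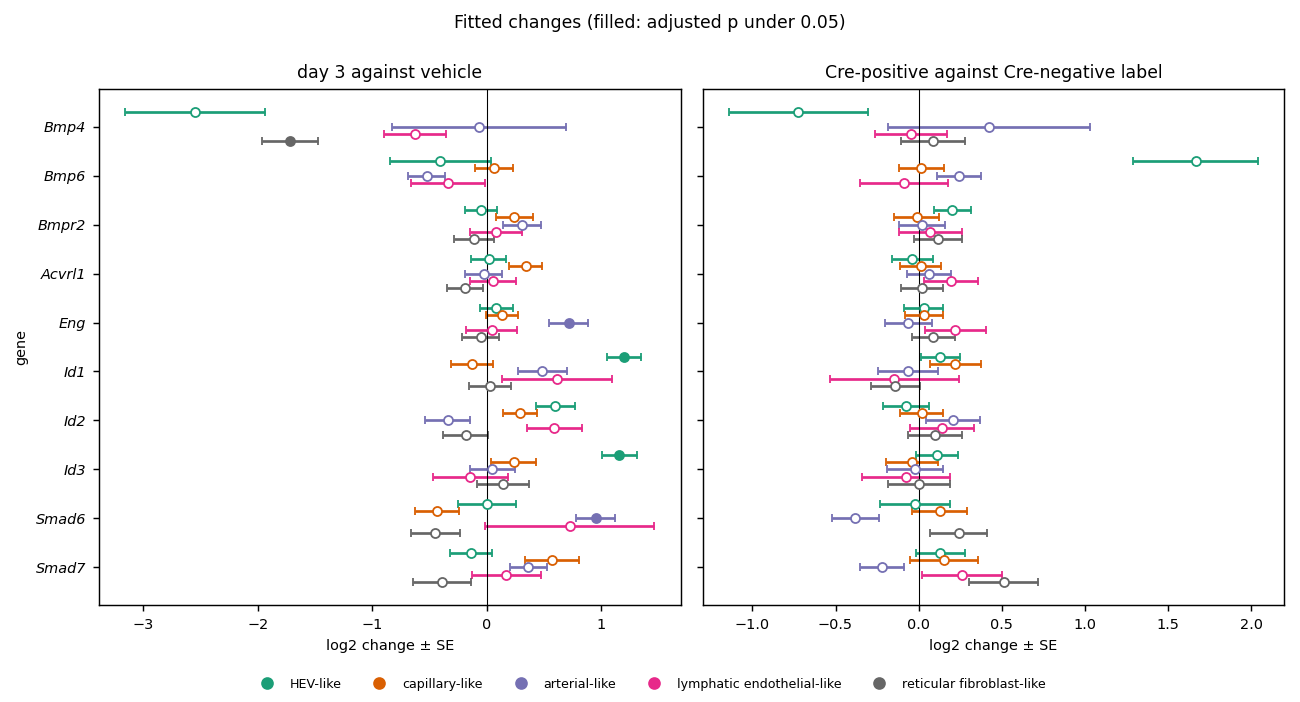
Fitted log2 change ± SE of each member (y axis) for day 3 against vehicle (left) and for the Cre-positive against the Cre-negative label (right) in 5 classes (colour); filled points have an adjusted p under 0.05. On the left Id1 and Id3 in HEV-like, Smad6 and Eng in arterial-like and Bmp4 in reticular fibroblast-like cells are filled, and on the right none is.

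Of 52 other genes of the pathway, many of the most abundant peaked in lymphatic or stromal classes. Bmp2, a close relative of Bmp4, had its highest class mean in floor lymphatic-like cells, at 1271 ± 279 CPM (SD, n = 6), the reverse side of the sinus from Bmp4 and Bmp6; Gdf10 was highest in ceiling lymphatic-like cells at 353 ± 51.0 CPM and Bmp5 in pericyte-like cells at 47.6 ± 14.7 CPM. Gdf2 and Bmp10, which encode the circulating ligands of ALK1, had highest class means of 0.537 ± 0.382 and 0.272 ± 0.608 CPM (SD, n = 6 and n = 5). The signal transducer Smad1 was highest in cortical and medullary lymphatic-like cells at 570 ± 62.4 CPM, Smad4 in floor lymphatic-like cells at 295 ± 81.9 CPM and Smad5 in cortical and medullary lymphatic-like cells at 166 ± 21.4 CPM. Gdf2 and Bmp10 were named for this role and not for their level. Among receptor genes Tgfbr3 peaked in cortical and medullary lymphatic-like cells at 884 ± 299 CPM, Tgfbr2 in adventitial fibroblast-like cells at 503 ± 44.5 CPM and Acvr2a in Mgp fibroblast-like cells at 255 ± 25.5 CPM. Extracellular modulators led in stroma, with Fstl1 at 1939 ± 375 CPM in adventitial and Htra1 at 714 ± 68.5 CPM in Cxcl13 and Enpp2 reticular fibroblast-like cells, while Crim1 had 698 ± 96.0 CPM in ceiling lymphatic-like cells. Smurf2, an E3 ubiquitin ligase gene, had 228 ± 82.8 CPM in adventitial fibroblast-like cells. Of other target genes Tmem100 had 246 ± 59.9 CPM in adventitial fibroblast-like cells, Hey1 182 ± 28.3 CPM in the mixed arterial and capillary cluster and Id4 96.8 ± 7.67 CPM in Mgp fibroblast-like cells. Between lymphatic and blood endothelial-like cells 18 of 36 tested genes were higher and 12 lower, and all 5 other target genes tested were among the lower. Between arterial-like and capillary-like cells 11 of 27 were higher and 7 lower, and between HEV-like and capillary-like cells 12 of 25 were higher and 11 lower. Of all genes tested, 61.2%, 42.7% and 66.6% were called in these 3 comparisons.

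On day 3, 0 of 26 of these genes were called in HEV-like cells and 0 of 45 in reticular fibroblast-like cells, beside 0.354% and 2.45% of all genes. In arterial-like cells Inhbb, an activin subunit gene (1.24 ± 0.29 log2), and Skil, a SMAD co-repressor gene (0.70 ± 0.17 log2), rose, and Tgfbr3 (-1.13 ± 0.18 log2) and Nog (-3.86 ± 0.94 log2, from 12 and 7 UMIs in vehicle and 1 and 1 on day 3) fell, 4 of 30 tested beside 6.73% of all genes. In the test of differences between vessels, the day 3 change of Tgfbr3 was lower in HEV-like than in capillary-like cells (-0.94 ± 0.23 log2), 1 of 25 tested beside 1.71% of all genes. In arterial-like against capillary-like cells that of Inhbb was higher (2.95 ± 0.57 log2) and those of Tgfbr3 (-1.16 ± 0.23 log2) and Atoh8 (-1.59 ± 0.39 log2) were lower, 3 of 27 beside 2.73% of all genes. In T-zone reticular fibroblast-like cells Fst, the gene of the secreted antagonist follistatin, rose (2.11 ± 0.38 log2). In all 11 of 41 were called there, beside 20% of all genes, and 9 of them fell, among them the receptor genes Acvr2a (-1.07 ± 0.20 log2), Acvr2b (-2.19 ± 0.55 log2) and Tgfbr3 (-0.95 ± 0.24 log2), the antagonists Grem1 (-1.01 ± 0.31 log2) and Chrdl1 (-0.86 ± 0.24 log2), and Bmp3 (-1.58 ± 0.29 log2). The others were Bmper (-1.15 ± 0.34 log2), Crim1 (-1.38 ± 0.24 log2) and Hey2 (-1.97 ± 0.47 log2). With 1 library left out the calls over all genes fell from 2468 to as few as 19 in T-zone (without day 3 Cre-negative) and from 707 to as few as 4 in arterial-like cells (without day 3 Cre-negative; 33 without day 3 Cre-positive).

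Over 18 classes of the CD31 libraries Acvrl1 was closer in pattern to Id1, Id3 and Smad6 (0.91, 0.83 and 0.84) than Eng (0.88, 0.77 and 0.79) and Bmpr2 (0.78, 0.67 and 0.71) were. These are correlations of log2(CPM + 1) class means, which gave 0.98 for Acvrl1 with Eng, 0.93 for Id1 with Smad6 and 0.91 for Id1 with Id3, but -0.18 for Id1 with Id2 and 0.18 for Id1 with Smad7. The 18 classes include T cell-like, regulatory T cell-like, B cell-like, NK cell-like and mature dendritic-like cells, so the values do not describe vessel types alone. Among vessels, venous-like cells had the highest means of Bmpr2 and Eng but were called lower than capillary-like cells in Id1 and Id3. Smad7 with Bmpr2, Acvrl1 and Eng gave -0.28, -0.08 and -0.20. Bmp4 with Bmp6 gave 0.55 and Bmp4 with Id1 0.05. Among 10679 genes the patterns most like Id1 were those of Gulp1 (0.99), Flt1 and Sox17 (both 0.98), and those most like Smad6 were Sox17 (0.96), Fam13c and Lims2 (both 0.95). For Acvrl1 they were Adam15 and Eng (both 0.98) and Cltb, and for Eng they were Adcy4, Grb10 and Ripor1 (all 0.99). The nearest to Bmp6 were 9330175M20Rik, Chmp3 and Uba3, with 0.95 for the first, and to Bmp4 Ctnnal1, Wipf3 (both 0.93) and Tc2n (0.92). Bmpr2 was nearest to Tbc1d32, Nbea and Maoa (all 0.96), Id3 to Fez2, Gulp1 and Ifit3b (all 0.92), Smad7 to Acss1 (0.86), Stk10 (0.85) and Zdhhc18 (0.84), and Id2 to Plaat3 (0.81), Ntng2 and Dap (both 0.80). The points share libraries and depth, so these values are descriptions.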

How the data were processed

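Single-cell 3′ RNA libraries were read from 12 gene-by-barcode matrices of UMI counts. The authors deposited raw counts of all barcodes, aligned to mm10 with Cell Ranger 7.0.1 per the submitters' processing notes, while the file headers name Cell Ranger 4; annotation and strand setting are not given in the sources used here. Cells had at least 1000 UMIs, at least 500 genes and at most 10% mitochondrial UMIs; the highest-scoring barcodes (0.8% per 1000 barcodes) were removed as doublets, although the caller's own threshold marked only 0, 1 and 3 barcodes in the vehicle Cre-negative and day 3 Cre-positive CD31 and the day 3 Cre-negative CD45 libraries, so it did not work there. Clustering (scanpy 1.11.5, leidenalg 0.10.2, Python 3.11.15) used each fraction separately, without the members, 52 further pathway genes, and immediate-early, flow, mitochondrial, ribosomal, sex-linked and receptor-segment genes. A class needed 30 cells in a library; venous-like (16 to 64 cells) and pericyte-like cells (20 to 49) were kept below that after their numbers were seen. Raw counts were summed per library and class and tested with edgeR 4.0.16 (R 4.3.3) quasi-likelihood fits, TMM scaling and edgeR's default expression filter, over 26 comparisons; p-values were adjusted over the genes of each comparison. DESeq2 1.42.0, RLE scaling, no filter, cells of at least 2000 UMIs, doublets kept, free RNA subtracted and each library left out were the alternatives. Each group is 1 library, so CPM intervals cover counting error only and p-values measure the spread between libraries that the additive terms leave, which may be technical. The fits were checked on simulated counts.

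Fibroblasts lay mainly in the CD45 libraries, so reticular fits used those, and adventitial cells replaced a fibroblast against blood endothelial comparison that could not be fitted. These choices, the arterial-like and T-zone fits and the class by day 3 fits were made after seeing the data. The members and gene lists were chosen with earlier results of these data known. All members were described; of other pathway genes, those called by treatment and up to 3 per role with the highest class mean were named, except 1 called gene that is not reported here, and for each member the 3 genes of most like pattern. Gene positions are from GENCODE M21 on GRCm38, which held 32235 of 32285 identifiers; promoter sequences are from RefSeq.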

Additional observations from a re-analysis of the deposited data

Results flagged for a closer look

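The day 3 change of Id1 was larger in HEV-like than in capillary-like cells by 1.33 log2, and that of Id3 by 0.90 log2, by the class by day 3 term of an edgeR model. The day 3 change of Smad6 was larger in arterial-like than in capillary-like cells by 1.39 log2 by the same kind of term. Each is a fitted difference between vessel types in the response to 1 treatment, and each rests on 2 day 3 libraries. Neither the Id1 nor the Id3 call held without either day 3 library. The Id3 call also did not hold without the vehicle Cre-positive library, with DESeq2, in cells of at least 2000 UMIs or with free RNA subtracted. The Smad6 call did not hold with DESeq2 or without the vehicle Cre-negative library. Capillary-like cells also had fewer deep cells on day 3, as given above.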

How the results depend on the processing

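No paired analysis was possible because each group is 1 library; this concerns treatment and label, since classes were compared within libraries. The fibroblast against blood endothelial comparison was not run. Over the processing alternatives, the called log2 differences of members kept direction and call in 313 refits and lost the call in 11; with 1 library left out, they kept both in 293 and lost the call in 31; none of these called differences changed sign. With no expression filter the members called became 4 in HEV-like cells on day 3 and 1 for the label in HEV-like cells (Bmp6), beside 1293 and 198 of 20191 genes called. For the day 3 difference between HEV-like and capillary-like cells 1 member was called with DESeq2, 1 in cells of at least 2000 UMIs and 1 with free RNA subtracted, and for that between arterial-like and capillary-like cells 0 with DESeq2; the cause was not tested. Leaving out each library in turn gave, on day 3, 0 to 4 members called in HEV-like and in arterial-like cells, 0 to 1 in capillary-like and in lymphatic endothelial-like cells, 0 to 2 in reticular and 0 to 3 in T-zone reticular fibroblast-like cells. It gave 0 to 1 for the label in T-zone cells, and 0 to 2 for both differences between vessels. For classes it gave 5 to 5 (HEV-like), 6 to 7 (venous-like), 7 to 8 (arterial-like), 9 to 10 (lymphatic), 6 to 7 (pericyte-like) and 6 to 7 (adventitial). Counts over all genes moved more. On day 3 they were 41 in HEV-like cells, 49 to 1293 under the alternatives and 1 to 1711 with a library left out. The same 3 values were 707, 158 to 776 and 4 to 1095 in arterial-like cells, 353, 131 to 1810 and 0 to 2052 in reticular, and 2468, 1314 to 3142 and 19 to 3250 in T-zone reticular fibroblast-like cells. For the differences between vessels they were 188, 30 to 224 and 2 to 301 (HEV-like) and 285, 33 to 297 and 97 to 337 (arterial-like). For the label in HEV-like cells they were 2, 1 to 198 and 4 to 239. Of levels, 47 moved by more than their spread. Depth limits Bmp4 and Bmp6 in HEV-like cells, read from 3 to 44 UMIs a library. On simulated counts 2-fold differences between the HEV-like and capillary-like day 3 changes were recovered in 31% of the genes changed. The spread between those simulated libraries was fixed in advance.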
